A study of Mus musculus with 6 samples.

Results

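The lysosome is the acidic compartment in which a cell breaks down protein, lipid and sugar chains, and its cathepsins are the proteases that cut protein there. LAMP proteins coat the inner face of its membrane, and the vacuolar-type proton pump (V-ATPase) acidifies it. The pump has a cytosolic V1 sector that splits ATP and a membrane V0 sector that moves protons. In the arterial wall, cathepsins that reach the matrix are known for cutting elastin and collagen.

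The genes described are the protein-coding rows whose symbol marks a cathepsin (Cts and 1 letter), a LAMP (Lamp and a digit) or a subunit or accessory protein of the pump (Atp6v and Atp6ap), together with Cd63 and Cd68. There were 50 such genes of 54532 in the table. They comprised 18 cathepsins, 6 LAMP family genes counting Cd63 and Cd68, 13 V1 sector genes and 12 V0 sector and accessory genes. The remaining gene, Atp6v1fnb, is named after its neighbour and is not a pump subunit.

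RNA-seq had been performed on mouse vascular smooth muscle cells. Per the methods of the study, such cells were taken from abdominal aortas of 10-week-old mice and used at passages 4 to 8. The Ad-Con group held 3 wild-type (WT) libraries given a control plasmid by adenoviral vector. The Ad-PDK4 group held 3 libraries given a pyruvate dehydrogenase kinase 4 overexpression plasmid in the same way. The study describes smooth muscle cells given either vector and names no separate genotype for Ad-PDK4. The study states that all 6 were treated with angiotensin II (1 μM, 48 h), which the labels do not give. The comparison asks which lysosomal genes differ in mRNA level when PDK4, the kinase that switches off pyruvate dehydrogenase, is supplied by the virus.

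The libraries held 17588942 to 21861872 reads. The targeted gene went against the label. Pdk4 was at 9.50, 10.4 and 10.1 FPKM (fragments per kilobase of gene, scaled to the depth of the library) in Ad-Con and at 7.67, 7.40 and 7.38 FPKM in Ad-PDK4, a difference of -0.42 on the log2 scale (SE 0.06, limma adjusted p = 1.1e-03). Whether transcripts of the plasmid are counted in this row was not tested. Higher and lower below therefore mean in the libraries that bear the Ad-PDK4 label, set against Ad-Con. Of 8 smooth muscle markers, Acta2 fell from 78.0 ± 0.950 to 36.2 ± 2.40 FPKM (SD, n = 3; log2 fold change -1.11, limma adjusted p = 5.3e-06), Smtn and Lmod1 did not pass (0.02 and -0.29), and Myh11, Tagln, Cnn1, Myocd and Des were below a mean of 0.5 FPKM. Of 7 fibroblast markers 5 were lower and 1 higher, where 20.8% of all tested genes were lower and 21.8% higher. The collagen gene Col1a1 fell by 1.28 (limma adjusted p = 1.3e-05), Dpt by 1.36 (limma adjusted p = 7.1e-06) and Lum by 1.16 (limma adjusted p = 4.6e-04), while the proteoglycan gene Dcn rose by 0.83 (limma adjusted p = 4.0e-04) and Pdgfra did not pass (-0.05). Summed FPKM, mostly Acta2 in the one list and Col1a1 in the other, went from 88.1 to 45.9 for smooth muscle markers and from 1516 to 776 for fibroblast markers. Of 6 endothelial markers only Kdr was high enough to test, and it did not pass (0.68, limma adjusted p = 0.065). The part of these markers in the differences below was not tested.

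Among the 50 genes, 33 reached a mean of 0.5 FPKM and were tested. In Ad-PDK4, 1 was higher and 15 were lower at a limma adjusted p below 0.05, and 17 did not pass. Over all 13423 tested genes the same rule called 21.8% higher and 20.8% lower. The median log2 fold change of the 33 genes was -0.14 and that of all tested genes -0.003. Most differences were small: 10 of the 16 called genes differed by less than 0.5 on the log2 scale. A fold of at least 2 was passed by 0 genes upward and by 2 downward, Cd68 and Ctse, against 3.95% and 2.68% of all genes. Ctse reached the filter only through its Ad-Con level. The libraries of the groups did not overlap for 19 of the 33 genes, against 54.3% of all genes. When FPKM were rescaled to a fixed sum per library (TPM), the calls became 3 higher and 11 lower. In bulk RNA, fewer cells that carry a transcript and less of it per cell cannot be told apart.

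**Figure D1:**
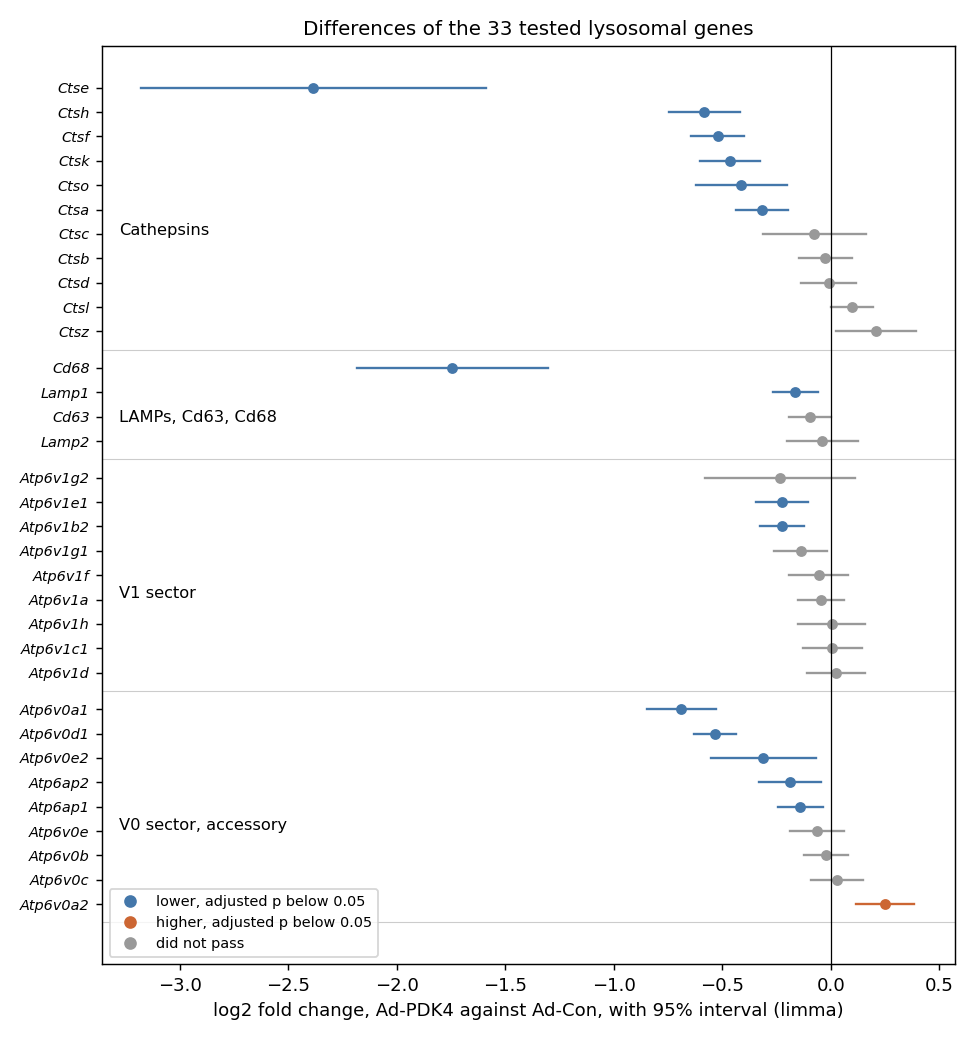
Log2 fold change of each of the 33 tested genes, libraries labelled Ad-PDK4 against Ad-Con (x axis), with the 95% interval from limma, grouped by role. The 15 blue genes were lower and the orange gene, Atp6v0a2, was higher at an adjusted p below 0.05. Ctse (-2.38) and Cd68 (-1.74) lie apart from the rest.

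The cathepsins that fell were mostly the less abundant ones. The 5 most abundant, Ctsb, Ctsd, Ctsz, Ctsl and Ctsa, made up 90.0% ± 0.178 of cathepsin FPKM in Ad-Con and 92.8% ± 0.362 in Ad-PDK4 (SD, n = 3). Among 11 tested cathepsins 6 were lower and 0 higher, with a median log2 fold change of -0.32. Of all tested genes 20.8% were lower and 21.8% higher. Of the 5 most abundant, 1 (Ctsa) was lower, and of the other 6 tested, 5 were. The summed level went from 1614 ± 44.7 to 1589 ± 51.4 FPKM (SD, n = 3), and the groups overlapped.

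Ctsb, a cysteine protease active as an endopeptidase and a carboxydipeptidase, was at 417, 447 and 405 FPKM in Ad-Con and at 430, 406 and 410 FPKM in Ad-PDK4. Its groups overlapped, and the log2 fold change was -0.03 (95% interval -0.15 to 0.10, limma adjusted p = 0.72). Ctsd, the main aspartic protease of lysosomes, was at 394, 358 and 376 FPKM against 367, 391 and 363 FPKM. Its groups overlapped as well, at a log2 fold change of -0.01 (-0.14 to 0.12, limma adjusted p = 0.90).

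Ctsl, a cysteine endopeptidase, did not overlap between groups but missed the threshold. It was at 147, 152 and 146 FPKM in Ad-Con and at 158, 158 and 160 FPKM in Ad-PDK4, a difference of 0.10 on the log2 scale (SE 0.04, limma adjusted p = 0.10). It passed with TPM scaling (0.14, limma adjusted p = 0.029). Parts of Ctsb (14.5% of 100-base windows), Ctsd (35.01%) and Ctsl (25.4%) also occur in other transcripts, so their levels are less certain. Ctsz, a carboxypeptidase, overlapped between groups at 346 ± 26.6 and 399 ± 34.9 FPKM (SD, n = 3; log2 fold change 0.21, limma adjusted p = 0.071). It was called higher with TPM scaling, quantile normalization, the replicate block, limma-voom and a filter at 5 FPKM.

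Ctse had the largest fold of the 33 genes. This aspartic protease of endosomes, found mainly in immune and epithelial cells (chr1:131638306-131675505, GRCm38), had 74, 52 and 52 reads in Ad-Con and 5, 8 and 7 reads in Ad-PDK4. In FPKM these were 1.15, 0.934 and 0.905 against 0.0867, 0.144 and 0.09997. The means differed 9.03-fold and the groups lay far apart, although the level was low throughout. The difference was -2.38 on the log2 scale (SE 0.34, limma adjusted p = 1.0e-03). Ctse reached the filter for testing only through its Ad-Con level, so this p does not stand apart from the filter. At a filter of 5 FPKM it was not tested.

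Ctsh, an aminopeptidase (chr9:90054152-90076089), fell in Ad-PDK4. Its FPKM were 28.8, 30.7 and 27.3 in Ad-Con and 18.5, 18.4 and 20.98 in Ad-PDK4 (log2 fold change -0.58, SE 0.07, limma adjusted p = 4.5e-04). All Ad-PDK4 libraries lay below all Ad-Con libraries.

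Ctsf, a cysteine protease of the papain family (chr19:4855129-4860912), fell as well. Its FPKM were 52.4, 55.2 and 52.0 in Ad-Con and 36.7, 38.7 and 35.7 in Ad-PDK4 (log2 fold change -0.52, SE 0.05, limma adjusted p = 1.6e-04). Again the groups did not overlap.

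Ctsk, the collagen- and elastin-cutting protease best known from osteoclasts, was at 67.2, 63.2 and 62.3 FPKM in Ad-Con and at 48.5, 43.3 and 47.9 FPKM in Ad-PDK4. It fell by 0.47 on the log2 scale (SE 0.06, limma adjusted p = 6.1e-04), without overlap. Ctso, another papain-type protease, fell by 0.41 (limma adjusted p = 8.0e-03). Ctsa, the carboxypeptidase that also holds beta-galactosidase and neuraminidase in a stable complex, fell by 0.32 (limma adjusted p = 2.1e-03). Ctsa overlaps Pltp on the opposite strand, which went from 184 to 113 FPKM, and whether counting used strand is not given in the sources used here. Ctsc, which activates granule proteases, was at 4.53 ± 0.374 and 4.30 ± 0.453 FPKM and did not pass (SD, n = 3; limma adjusted p = 0.58).

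Ctss, a protease that trims the invariant chain of MHC class II in antigen-presenting cells, was too rare to be tested. It had 0 reads in each Ad-Con library and 4, 10 and 4 reads in Ad-PDK4. Against the 3 reads per library that a count of 0 allows, the observed Ad-PDK4 mean was 2.01 times that level (0.239 against 0.119 FPKM). The counting error of the Ad-PDK4 reads is not in this ratio, and Ad-PDK4 2 held the most of them. The invariant chain itself, Cd74, had 4, 1 and 3 reads in Ad-Con and 42, 44 and 62 reads in Ad-PDK4. The ratio was 17.9 (exact 95% interval 8.87 to 42.3, counting error only), and the limma adjusted p was 1.2e-04. Cd74 reached the filter for testing only through its Ad-PDK4 level.

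**Figure D2:**
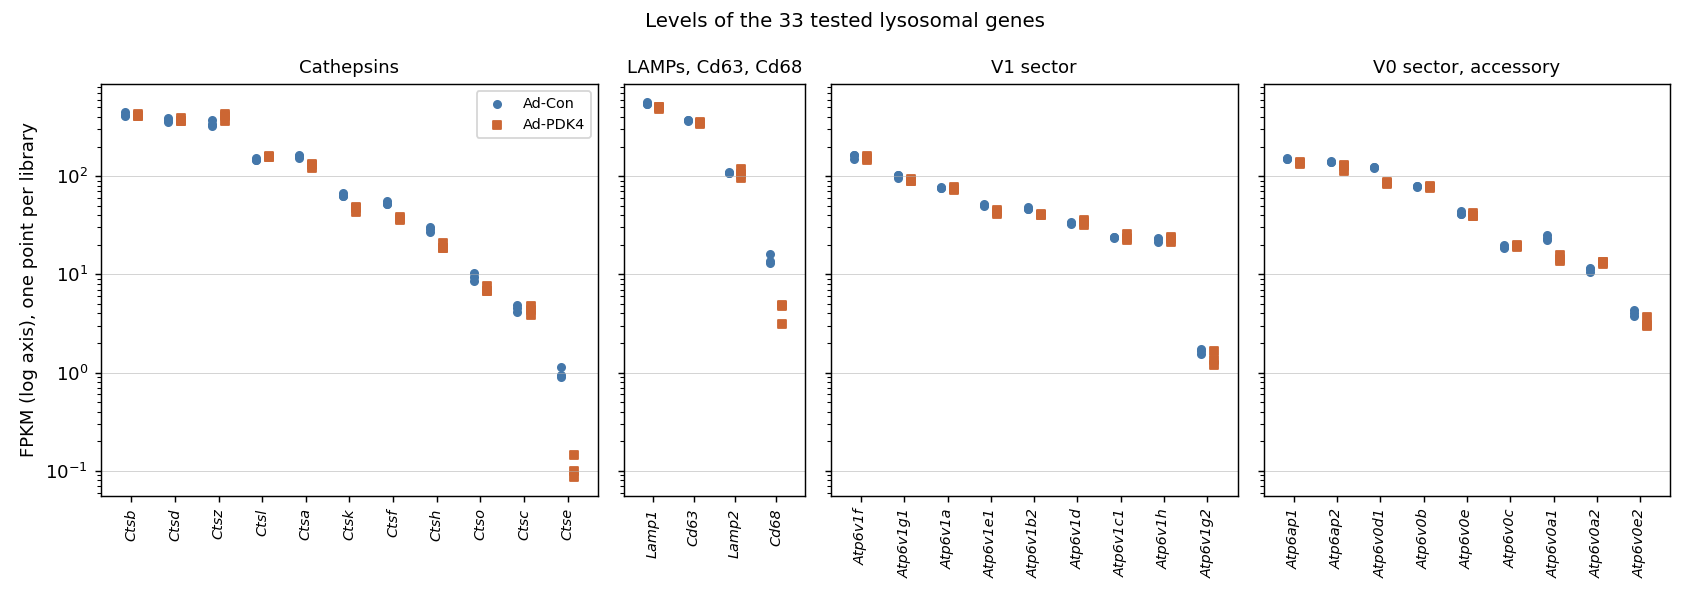
FPKM on a log axis of the 33 tested genes in each library, ordered by mean level within each role. Blue circles are the 3 Ad-Con libraries and orange squares the 3 Ad-PDK4 libraries. The abundant genes of each role lie close together in both groups, and Cd68 and Ctse stand well apart.

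Among the LAMP family genes, Lamp1 and Lamp2, the major glycoproteins of the lysosomal membrane, were close between groups. Lamp1, the most abundant of all 50 genes, was at 563.5, 546 and 547 FPKM in Ad-Con and at 477, 502 and 501 FPKM in Ad-PDK4. The groups did not overlap, and the difference was -0.16 on the log2 scale (SE 0.04, limma adjusted p = 0.020). Under quantile normalization it was 0.009 (limma adjusted p = 0.91), so the direction depended on the scaling.

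Lamp2, which also serves chaperone-mediated autophagy, was at 108, 108 and 109 FPKM against 104, 96.5 and 117 FPKM. Its groups overlapped (log2 fold change -0.04, 95% interval -0.20 to 0.12, limma adjusted p = 0.69). Cd63, a tetraspanin of late endosomes and exosomes, was at 373, 371 and 367 FPKM against 356, 340 and 345 FPKM. It did not overlap but missed the threshold, at a difference of -0.09 on the log2 scale (SE 0.04, limma adjusted p = 0.11).

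Cd68, a LAMP relative used as a macrophage marker (chr11:69664213-69666153), was 3.36-fold lower in Ad-PDK4. It had 416, 299 and 294 reads in Ad-Con and 111, 105 and 86 reads in Ad-PDK4, or 16.3, 13.5 and 12.9 FPKM against 4.85, 4.77 and 3.10 FPKM. The lowest Ad-Con library was far above the highest Ad-PDK4 library (log2 fold change -1.74, SE 0.18, limma adjusted p = 4.4e-04). Of 14 other macrophage markers 0 were lower (20.8% of all tested genes), though only Cd14 and Lyz2 were high enough to test. Lyz2 did not pass (0.36, limma adjusted p = 0.079). Of the rest, Ptprc, Itgam, Tyrobp, C1qa, C1qb, C1qc and Cx3cr1 had 0 reads in every library and Adgre1, Laptm5, Fcer1g and Mrc1 at most 6. Csf1r, the receptor of macrophage growth factors, had 11, 23 and 35 reads in Ad-Con and 56, 62 and 61 in Ad-PDK4. Its mean FPKM was 2.48-fold higher without overlap, but it was too low to be tested. What these counts mean for Cd68 was not tested. The summed FPKM of the list was 14.4 to 15 in Ad-Con and 20.5 to 22.8 in Ad-PDK4. That sum was mostly Cd14, the lipopolysaccharide co-receptor, which rose from 12.8 ± 0.182 to 18.8 ± 1.201 FPKM (SD, n = 3; limma adjusted p = 2.7e-04).

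**Figure D3:**
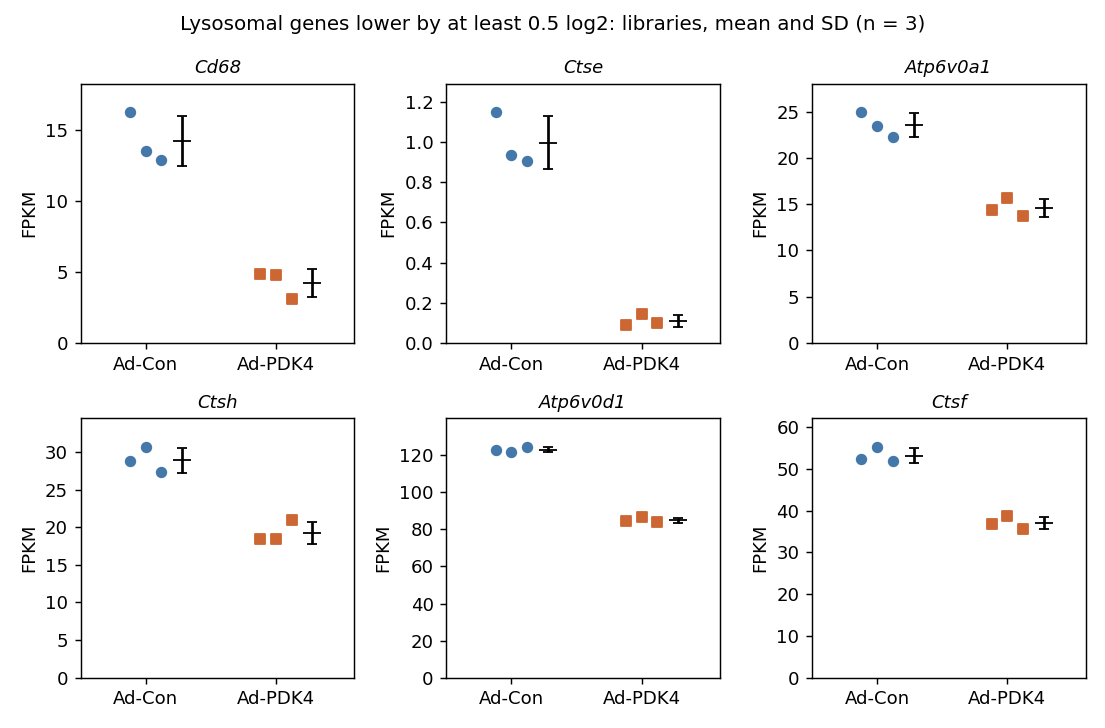
FPKM per library of the 6 genes that were lower by at least 0.5 on the log2 scale at an adjusted p below 0.05. Blue circles are Ad-Con, orange squares Ad-PDK4, and black marks the mean with SD (n = 3). In each panel every Ad-PDK4 library lies below every Ad-Con library.

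The V1 sector differed little. Among 9 tested genes 2 were lower (22.2%) and 0 higher, with a median log2 fold change of -0.06. The lower share was near that of all tested genes (20.8% lower, 21.8% higher). Atp6v1a, the catalytic A subunit, was at 78.0, 75.9 and 75.6 FPKM in Ad-Con and at 73.6, 72.0 and 76.7 FPKM in Ad-PDK4. Its groups overlapped (log2 fold change -0.05, 95% interval -0.15 to 0.06, limma adjusted p = 0.45). Atp6v1b2, its nucleotide-binding partner, fell by 0.23 (limma adjusted p = 4.4e-03), as did Atp6v1e1 of the peripheral stalk (0.23, limma adjusted p = 9.2e-03). Atp6v1g1, the other stalk subunit, was at 99.7 ± 4.40 and 90.4 ± 3.18 FPKM (SD, n = 3) and missed the threshold (limma adjusted p = 0.064). Atp6v1c1, Atp6v1d, Atp6v1f, Atp6v1g2 and Atp6v1h, the other tested subunits, had log2 fold changes of -0.24 to 0.02 and did not pass.

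Among 9 tested V0 sector and accessory genes, 5 were lower and 1 higher (median log2 fold change -0.14). The shares of all tested genes were 20.8% lower and 21.8% higher. The summed level of the V0 sector and accessory genes went from 591 ± 2.77 to 512 ± 5.07 FPKM (SD, n = 3). Much of this was Atp6v0d1, which went from 123 to 84.9 FPKM. The sum leaves out Tcirg1, a V0 gene outside the naming rule, which went from 22.2 to 47.3 FPKM. Atp6v0c, which builds the proteolipid ring, was at 18.9, 18.6 and 19.97 FPKM against 19.1, 19.6 and 19.8 FPKM. It overlapped (log2 fold change 0.03, 95% interval -0.09 to 0.15, limma adjusted p = 0.71), and 10.3% of its 100-base windows also occur elsewhere among transcripts. Atp6v0b and Atp6v0e, of the ring and its edge, differed by -0.02 and -0.06 and did not pass.

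Atp6v0d1, the subunit that joins the ring to the V1 rotor (chr8:105524465-105566047), had the smallest adjusted p of the 33 genes. It was at 123, 122 and 124 FPKM in Ad-Con and at 84.4, 86.4 and 83.9 FPKM in Ad-PDK4. The spread within each group was small beside the gap, and the difference was -0.53 on the log2 scale (SE 0.04, limma adjusted p = 4.4e-05). The ratio of its FPKM to that of Atp6v1a went from 1.61 ± 0.0349 to 1.15 ± 0.0532 (SD, n = 3).

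The accessory proteins Atp6ap1, an assembly factor, and Atp6ap2, the prorenin receptor, fell only slightly. Atp6ap1 was at 152, 148 and 150 FPKM against 136, 140 and 132 FPKM (log2 fold change -0.14, SE 0.04, limma adjusted p = 0.035). Atp6ap2 was at 138, 138 and 142 FPKM against 126, 112 and 130 FPKM (log2 fold change -0.19, SE 0.06, limma adjusted p = 0.040). Neither overlapped, but both lost the threshold under several alternatives, as did Atp6v0e2 (-0.31, limma adjusted p = 0.044).

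The a subunit, which holds the proton path and directs the pump to particular membranes, moved in different directions by isoform. Atp6v0a1 (chr11:101009452-101063719) was at 24.9, 23.4 and 22.3 FPKM in Ad-Con and at 14.4, 15.6 and 13.7 FPKM in Ad-PDK4. It fell by 0.69 on the log2 scale (SE 0.07, limma adjusted p = 1.6e-04). Atp6v0a2, the isoform of Golgi and endosomes (chr5:124628576-124724455), was at 11.2, 11.5 and 10.5 FPKM against 13.2, 12.9 and 13.4 FPKM, and was the only one of the 33 tested genes called higher in this fit (0.25, SE 0.06, limma adjusted p = 0.010).

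The lysosomal a3 isoform carries another name, Tcirg1, and was not caught by the naming rule. It rose from 22.2 ± 0.577 to 47.3 ± 3.13 FPKM (SD, n = 3; log2 fold change 1.08, SE 0.06, limma adjusted p = 7.2e-06). Of summed a-subunit FPKM, Atp6v0a1 made up 41.3% ± 1.59 in Ad-Con and 19.4% ± 0.405 in Ad-PDK4, and Tcirg1 39.1% ± 1.74 and 62.9% ± 1.02. The sum over the isoforms went from 57.0 ± 1.14 to 75.1 ± 3.80 FPKM. Atp6v0a4, the kidney isoform, stayed at 7 to 13 reads per library.

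**Figure D4:**
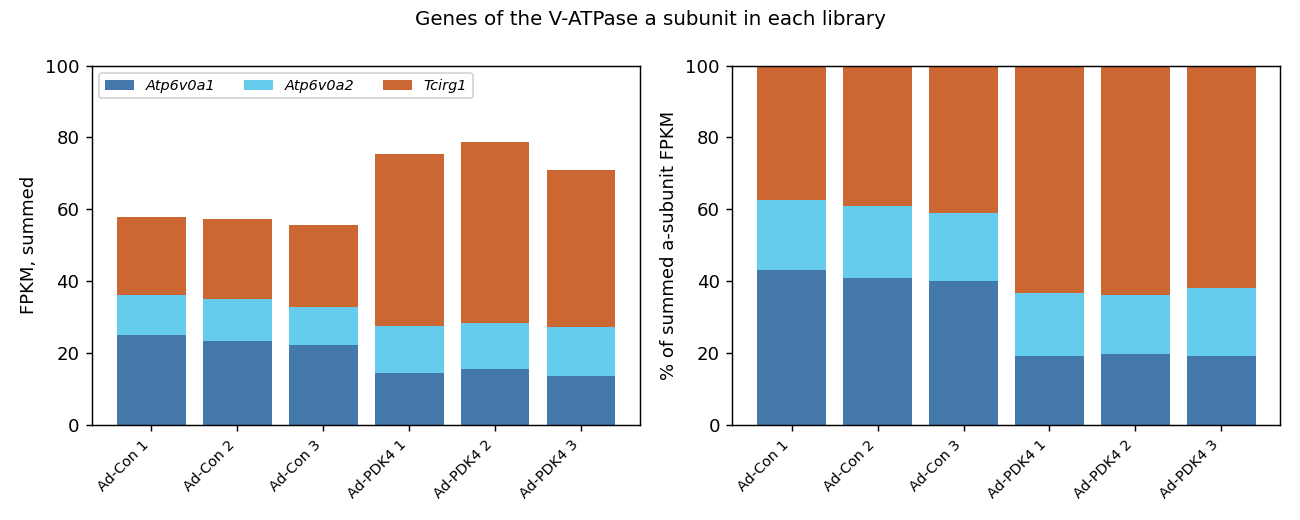
FPKM of Atp6v0a1, Atp6v0a2 and Tcirg1 stacked for each library (left) and each as a percentage of summed a-subunit FPKM (right). Tcirg1 takes 37.4% to 40.8% in the Ad-Con libraries and 61.8% to 63.7% in the Ad-PDK4 libraries.

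The 17 untested genes were at or near 0. Atp6v1g3, Atp6v1e2, Atp6ap1l, Lamp5, Ctsg, Ctsj, Ctsq and Ctsm had 0 reads in all 6 libraries. Atp6v0d2, the osteoclast and kidney isoform of the d subunit, had 3 reads in 1 Ad-Con library and 0 in the others. Ctsr and Atp6v1fnb had 1 read in all. Ctsw had 0, 3 and 3 reads against 3, 4 and 7, and Lamp3 0, 2 and 3 against 6, 0 and 9. Atp6v1b1 and Atp6v1c2 had at most 14 and 4 reads in a library. With Ctss and Atp6v0a4, these account for the rest.

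Other lysosomal genes were listed from general knowledge. Among 37 tested hydrolases and their activators, 7 were higher and 21 lower, at a median log2 fold change of -0.20. Of all tested genes 21.8% were higher and 20.8% lower. Galc, which removes galactose from myelin lipids, fell by 0.997 (limma adjusted p = 6.9e-05) and Gusb, beta-glucuronidase, by 0.76 (limma adjusted p = 2.1e-05). Gla, alpha-galactosidase, rose by 0.67 (limma adjusted p = 6.2e-05) and Acp5, tartrate-resistant acid phosphatase, by 0.62 (limma adjusted p = 1.4e-03).

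Among 26 tested membrane proteins 4 were higher and 12 lower, with a median of -0.24 (all tested genes: 21.8% higher, 20.8% lower). Besides Tcirg1, the largest differences were in the channels Tmem175 (-0.77, limma adjusted p = 4.8e-05) and Tpcn1 (-0.76, limma adjusted p = 2.1e-04), and in Rnasek, which did not pass (0.77, limma adjusted p = 0.12). Among 6 genes of sorting to lysosomes 0 were higher and 4 lower, beside the same shares of all tested genes. The mannose 6-phosphate receptor Igf2r fell by 0.72 (limma adjusted p = 4.5e-05) and the sorting receptor Sort1 by 0.52 (limma adjusted p = 2.7e-04), while M6pr was at 0.16 (limma adjusted p = 0.067).

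Of 10 tested factors that assemble or regulate the pump, 3 were higher and 2 lower. These counts are near the shares of all tested genes, 21.8% higher and 20.8% lower. Tmem199 rose by 0.33 (limma adjusted p = 2.3e-03) and Dmxl1 by 0.31 (limma adjusted p = 0.042; 0.083 without a filter, and 0.074 to 0.11 when any library but Ad-PDK4 2 was left out). Dmxl2 fell by 0.46 (limma adjusted p = 3.7e-03) and Tldc1 by 0.43 (limma adjusted p = 2.1e-03). Of the cystatins, which inhibit cysteine cathepsins, the abundant Cst3 and Cstb did not pass (0.00 and -0.03), and Cst6 went from 1.71 ± 0.140 to 0.842 ± 0.128 FPKM (SD, n = 3; limma adjusted p = 2.4e-03). H2-DMa and H2-DMb1, which load peptides on MHC class II, did not pass (-0.79 and 0.16). Among 3 tested transcription factors of lysosomal genes, Tfe3 rose by 0.28 (limma adjusted p = 9.9e-03) and Tfeb by 0.26 (limma adjusted p = 0.044). Tfeb missed the threshold when any 1 library was left out (limma adjusted p of 0.069 to 0.12). Mitf did not pass (-0.06, limma adjusted p = 0.80).

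**Figure D5:**
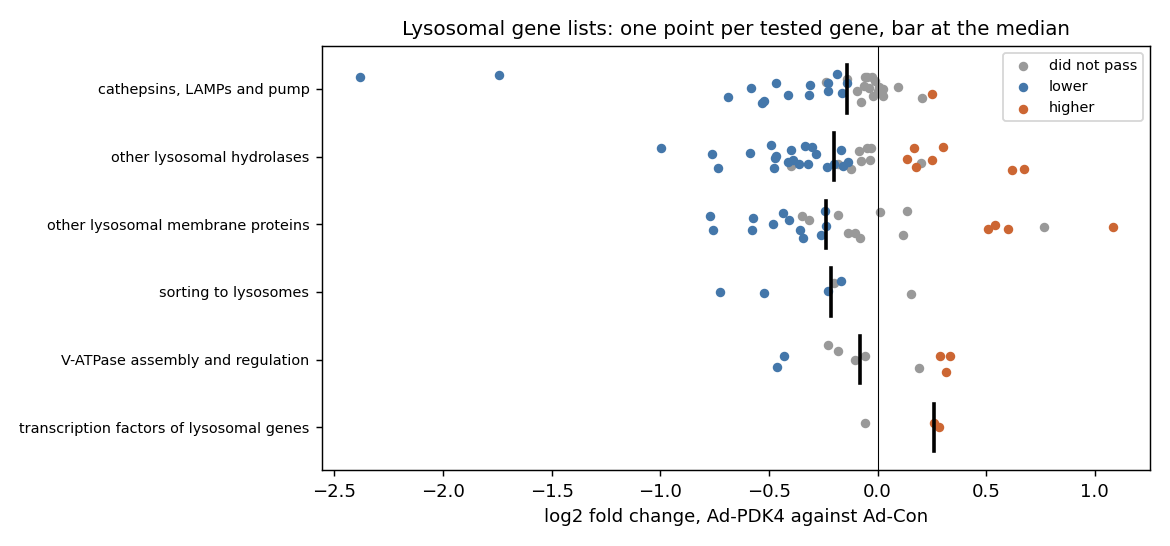
Log2 fold change of every tested gene of 6 lysosomal lists, libraries labelled Ad-PDK4 against Ad-Con (x axis), with a black bar at each median. The medians of cathepsins, LAMPs and pump (-0.14), hydrolases (-0.20) and membrane proteins (-0.24) lie below 0, and that of the 3 transcription factors (0.26) above it.

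TFEB, TFE3 and MITF bind the E-box CACGTG, and lysosomal genes are known for carrying it near their start with the flanks TCACGTGA. RefSeq promoters (GRCm38.p6, 250 bases before to 50 after the start) were found for 39 of the 50 genes and not for Ctsb, Ctse, Ctsh, Ctsw, Atp6v1b2, Atp6v1c1, Atp6v1g1, Atp6v1h, Atp6v0a2, Atp6v0d2 and Atp6ap1l. CACGTG, read on both strands, was in 9 of the 39 and in 8.09% of all 27025 genes with a promoter. Counting tested genes only, it was in 9 of 25 of the lysosomal genes and in 12.1% of all 9040. The flanked TCACGTGA, a subset of these, was in 5 of the 39 (1.12% of all) and in 5 of the 25 tested (2.29% of all tested). Of other listed hydrolase, membrane and sorting genes, 15 of 54 held CACGTG. The interferon-type motif GAAANNGAA was in 7 of the 39 (9.76% of all) and in 4 of the 25 tested (8.54% of all tested). The STAT-type TTCNNNGAA was in 3 of the 39 (9.55% of all) and in 1 of the 25 tested (8.11% of all tested).

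The bases from 150 before to 20 after the start are shown for Lamp1, with 4 E-boxes, and for Cd68, with none. They are also shown for Ctsa, Ctsd, Atp6v1a and Atp6v0d1, with the flanked form. Another RefSeq promoter of Ctsa (chr2:164832622-164832921) holds no CACGTG and is not shown. Capitals mark CACGTG, and each runs 5′ to 3′ on the strand of its gene.
Lamp1 (chr8:13159011-13159180, plus strand): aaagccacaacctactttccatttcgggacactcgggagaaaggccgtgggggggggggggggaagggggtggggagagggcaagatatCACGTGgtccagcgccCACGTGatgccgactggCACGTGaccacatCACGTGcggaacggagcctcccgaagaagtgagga
Ctsa (chr2:164833623-164833792, plus strand): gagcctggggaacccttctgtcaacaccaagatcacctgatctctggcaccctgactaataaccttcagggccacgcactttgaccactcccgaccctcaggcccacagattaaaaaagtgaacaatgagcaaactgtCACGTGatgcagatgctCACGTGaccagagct
Ctsd (chr7:142387808-142387977, minus strand): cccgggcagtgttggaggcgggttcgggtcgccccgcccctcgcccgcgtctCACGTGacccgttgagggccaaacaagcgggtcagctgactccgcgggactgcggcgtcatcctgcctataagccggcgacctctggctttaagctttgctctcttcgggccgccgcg
Atp6v1a (chr16:44139240-44139409, minus strand): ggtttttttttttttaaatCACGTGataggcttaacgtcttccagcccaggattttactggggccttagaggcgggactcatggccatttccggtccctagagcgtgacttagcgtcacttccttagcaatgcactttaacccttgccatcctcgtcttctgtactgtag
Atp6v0d1 (chr8:105566045-105566214, minus strand): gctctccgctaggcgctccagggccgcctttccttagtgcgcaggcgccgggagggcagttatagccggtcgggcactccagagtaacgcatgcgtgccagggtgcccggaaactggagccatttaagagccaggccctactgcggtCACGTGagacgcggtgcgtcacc
Cd68 (chr11:69666151-69666320, minus strand): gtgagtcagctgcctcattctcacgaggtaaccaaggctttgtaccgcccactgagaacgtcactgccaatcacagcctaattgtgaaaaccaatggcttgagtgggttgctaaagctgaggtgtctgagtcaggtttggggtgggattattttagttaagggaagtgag

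Of 9 tested genes that held CACGTG, 4 were lower and 0 higher, at a median log2 fold change of -0.06. Of 16 tested genes with a promoter that lacked it, 8 were lower and 0 higher, at a median of -0.16. Of all tested genes 20.8% were lower and 21.8% higher. Of the 5 genes with a flanked E-box, Ctsd, Atp6v1a and Atp6v0e did not pass. Ctsa fell by 0.32 and Atp6v0d1, with one at its start, by 0.53. A match of letters is a description and does not show binding.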

How the data were processed

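RNA-seq of 6 libraries (3 Ad-Con, 3 Ad-PDK4) was read from 1 deposited table of FPKM values, made by the authors for each gene without pooling of replicates. The submitters' processing notes name CASAVA 1.8, fastp, HISAT2 2.0.5, featureCounts 1.5.0-p3, DESeq2 1.20.0 and build GRCm39, but 98.3% of the 54495 gene identifiers found in GENCODE M21 had their GRCm38 coordinates, so GRCm38 is given. The labels name a SMARTER kit and the methods a NEBNext kit, and the strand setting is not given in the sources used here. FPKM times gene length gave whole reads for 100% of values (tolerance 0.01 reads), 17588942 to 21861872 per library. Depth limits low genes: 3 reads per library is the level that a count of 0 allows.

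The test was limma (version 3.58.1, R 4.3.3; trend and robust, two-sided, no covariates) on log2 of FPKM plus 0.1, over the 13423 genes with a mean of at least 0.5 FPKM, with Benjamini-Hochberg adjustment and a threshold of 0.05. Each p in the text is from that fit unless stated. Fold changes on this scale understate those of low genes. The labels do not say whether libraries of a group came from separate cultures (a figure caption of the study calls them biological replicates), so p-values measure the spread between these libraries. The labels name no batch. The script was tested on simulated data. Alternatives covered the pseudocount, filter, scaling, moderation, replicate block, limma-voom on the reads, and leaving out each library.

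Genes and lists were chosen with earlier results of these data known. Values per library were given for genes that passed with a log2 difference of at least 0.5, and for 15 genes set by name. Other lists name their called genes of 2-fold or more and their 2 largest rises and falls. Atp6v0a2, Ctsz and the other genes outside this rule were named after their values were seen. Motifs were searched in RefSeq promoters (GRCm38.p6), counting a gene if any of its promoters matched.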

Additional observations from a re-analysis of the deposited data

How the results depend on the processing

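Of the 16 called genes, 12 kept their direction and threshold under every alternative that tested them, while Lamp1, Atp6ap1, Atp6ap2 and Atp6v0e2 lost it under 7, 10, 9 and 10 alternatives. Among the 50 genes 1 was higher as reported (Atp6v0a2). With Ctss added it was 2 without a filter on low values. With Ctsz added it was 2 at a mean of at least 5 FPKM, under quantile normalization, under the replicate block and under limma-voom. With TPM scaling it was 3 (Ctsl and Ctsz added). Leaving out 1 library gave 1 to 2, with Ctsz added without Ad-Con 2 or Ad-PDK4 3. At a fold of at least 2, 1 gene (Ctss) was higher without a filter, and 1 was lower with a pseudocount of 1 or at a mean of at least 5 FPKM. Ctss had 0 reads in every Ad-Con library, so it entered the fit without a filter only through Ad-PDK4. Its fold there rests on the pseudocount.

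The median log2 fold change over the tested genes was -0.0993 without a filter, -0.0948 at 5 FPKM, -0.0989 with TPM, -0.121 with quantile normalization and -0.145 to -0.124 when leaving out 1 library. For cathepsins it was -0.117 without a filter. For LAMP family genes it was -0.0948 without a filter, -0.0878 with TPM and -0.00481 with quantile normalization. For V1 genes it was -0.0983 to -0.0529 when leaving out 1 library. For V0 and accessory genes it was -0.103 at 5 FPKM, -0.1 with TPM and -0.152 to -0.119 when leaving out 1 library.

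Hydrolases called higher, 7 as reported, were 4 without a filter, with quantile normalization, without trend and robust and under the replicate block, and 4 to 5 when leaving out 1 library. Their median was -0.16 with TPM and -0.231 to -0.183 when leaving out 1 library. For membrane proteins the median was -0.161 with a pseudocount of 1, -0.199 with TPM and -0.259 to -0.187 when leaving out 1 library. Of sorting genes 1 was higher with TPM or limma-voom, and leaving out 1 library gave 0 to 1 higher (1 without Ad-PDK4 2) and 2 to 4 lower (2 without Ad-Con 1, Ad-Con 2 or Ad-PDK4 1). Of transcription factors 1 was higher without a filter, at 5 FPKM, under the replicate block and without any 1 library, since Tfeb missed the threshold or was not tested, and their median was 0.192 with a pseudocount of 1 and 0.306 with TPM.

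The sign turned for Lamp1 (0.00909 with quantile normalization) and for genes that did not pass. With TPM and with quantile normalization, Ctsb was 0.0146 and 0.0808, Ctsd 0.031 and 0.0975, Lamp2 0.00225 and 0.00515, and Cstb 0.00814 and 0.0659. With quantile normalization Atp6v0c was -0.0312 and Smtn -0.0335. When leaving out 1 library, values ranged from -0.058 to 0.0142 for Ctsb, -0.0449 to 0.0247 for Ctsd, -0.112 to 0.0264 for Lamp2, -0.0552 to 0.00675 for Cstb, -0.138 to 0.0379 for Mitf, -0.0244 to 0.0436 for Smtn, -0.067 to 0.0824 for Cst3. The cause was not tested.

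Libraries with the same number did not deviate together (correlations of -0.046, -0.031 and -0.001), so the numbers were not taken as a pairing. Under the replicate block 2 of the 50 genes were higher and 12 lower. At this depth 17 of the 50 genes were too low to test.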
